A study of Mus musculus with 6 samples.

Results

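The genes described here encode the chains of the fibrillar collagens of types I, III, V and XI. They are Col1a1, Col1a2, Col3a1, Col5a1, Col5a2, Col5a3 and Col11a1, found as the rows of the count table with those symbols, and all 7 were present among 14831 listed genes. Between wells labelled WT and wells labelled KO for Gli2 and Gli3, Col3a1 was 1.92-fold lower in the labelled KO wells, Col5a3 was 2.79-fold higher, and Col11a1 was higher from a level near the detection limit. Col1a2 and Col5a1 differed by small amounts, and the levels of Col1a1 and Col5a2 overlapped between the groups.

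RNA was taken from immortalized mouse pancreatic fibroblasts of mixed strain, derived from mice with floxed Gli alleles. The 3 WT-labelled libraries came from cells that received an adenovirus expressing GFP and, per the study's methods, a lentivirus carrying dsRed. The 3 KO-labelled libraries, with the genotype Gli2-/-;Gli3-/-, came from cells that received the GFP adenovirus and an adenovirus expressing Cre recombinase from the CMV promoter, so that both groups carry the floxed background, immortalization and the GFP virus. Infected cells were sorted by flow cytometry, and each library is a separate well of the same line grown to confluence in serum, so p-values measure the spread between wells and not between animals or independently derived lines. The infected and sorted cells of each group, their viruses and their genotype cannot be told apart in this design.

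Gli2 and Gli3 encode transcription factors of the hedgehog pathway, and their counts were higher in the KO-labelled libraries. Gli2 measured 27.1 ± 1.19 CPM (counts scaled to library size; SD, n = 3) in the WT-labelled libraries and 56.2 ± 1.96 CPM in the KO-labelled ones, and Gli3 measured 12.5 ± 0.044 and 40.8 ± 1.64 CPM. Counts over a whole gene sum all of its exons and do not isolate a floxed exon, so they do not check the deletion itself. The study reports that it checked the deletion in its knockout lines by qPCR and western blot. It also reports that Gli2/Gli3 KO fibroblasts did not respond to hedgehog stimulation. The gene counts cannot repeat that check, so groups are named below by their labels. Gli1, a target gene of the pathway, went from 1.31 ± 0.169 to 0.249 ± 0.141 CPM, with only 4, 10 and 13 counts in the KO-labelled libraries. The better counted target gene Ptch1 went from 235 ± 10.3 to 81.8 ± 4.61 CPM. Libraries held 31728420 to 33905521 counts in the group labelled WT and 32781730 to 41035931 in the group labelled KO. Of 12 fibroblast markers, 9 were analysed; their summed level was 10600 to 10800 CPM in the WT-labelled libraries and 9300 to 9730 CPM in the KO-labelled ones. Of the 8 tested, S100a4 was called higher and Pdgfra, Pdgfrb, Dcn and Lum were called lower by the test described below. By its adjusted p without the fold limit 2 of the 8 were higher and 5 lower, where 58.7% of all tested genes passed. The abundant Fbln2, not called, rose from 2870 ± 139 to 4140 ± 105 CPM (log2 fold change 0.53, SE 0.04, edgeR adjusted p = 5.98e-08). Lum, at 12, 7 and 7 counts in the KO-labelled libraries, passed the filter on low counts only through the WT-labelled ones. Vim, an intermediate filament gene of mesenchymal cells, stood at 4280 ± 54.1 and 3910 ± 128 CPM (SD, n = 3), whereas Thy1 was at 0.0525 and 0.39 CPM, too low to be tested, and Mmp2 was low at 1.28 and 1.67 CPM.

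Fibrillar collagens are the cables of the extracellular matrix. The chains wind into a triple helix built on a repeat of glycine and a pair of other residues (Gly-X-Y), are secreted as procollagens, trimmed at both ends and assembled into fibrils that lysyl oxidases cross-link. Type I, built from the chains of Col1a1 and Col1a2, is the bulk fibril of connective tissue. Type III, a homotrimer of the Col3a1 chain, co-assembles with it in distensible and wounded tissue. Types V and XI sit in the fibril core, where they nucleate assembly and limit fibril diameter, and all of these are laid down by fibroblasts in the fibrotic stroma of the pancreas.

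The glycine repeat is visible in the transcripts of all 7 genes, and it was not measured in other collagens. The first 54 bases of the longest unbroken Gly-X-Y run are shown 5′ to 3′ for 1 chain of each type, with the glycine codon (GGN) that opens each triplet in capitals, from the longest protein-coding transcripts of GENCODE M21.

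Col1a1: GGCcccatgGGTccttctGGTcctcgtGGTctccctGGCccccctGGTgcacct

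Col3a1: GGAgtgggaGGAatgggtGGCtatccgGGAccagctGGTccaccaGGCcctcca

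Col5a3: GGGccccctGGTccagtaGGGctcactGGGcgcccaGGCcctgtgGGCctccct

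Col11a1: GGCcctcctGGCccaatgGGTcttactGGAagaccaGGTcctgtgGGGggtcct

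The run held 338 glycine-led triplets in Col1a1, 339 in Col1a2, 344 in Col3a1, 338 in Col5a1, 339 in Col5a2, 337 in Col5a3 and 338 in Col11a1. It filled 74.1% of the open reading frame of Col1a2 and 55.2% of that of Col5a1, whose chain carries a long amino-terminal extension. Thus the helix length was nearly the same across the family while the transcripts ranged from 5348 bases in Col1a2 to 8406 bases in Col5a1, and levels are compared among these genes after division by transcript length. Ranks among all genes are given both by raw counts and per kilobase of exon.

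The promoters of the 3 genes past both limits of the test are shown next, because these genes moved in different directions. Each is the 150 bases before the start of the gene in RefSeq, build GRCm38.p6, written 5′ to 3′ on the gene's strand. Capitals mark matches on either strand to a TATA box, searched as TATAAA, to a CCAAT box by its name, or to a GC box, searched as GGGCGG. The Col3a1 sequence is chr1:45311388-45311537 on the plus strand, the Col5a3 sequence is chr9:20815068-20815217 on the minus strand, and the Col11a1 sequence is chr3:114030390-114030539 on the plus strand.

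Col3a1: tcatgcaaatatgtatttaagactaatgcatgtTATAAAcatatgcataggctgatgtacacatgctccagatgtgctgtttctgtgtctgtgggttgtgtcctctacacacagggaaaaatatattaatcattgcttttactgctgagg

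Col5a3: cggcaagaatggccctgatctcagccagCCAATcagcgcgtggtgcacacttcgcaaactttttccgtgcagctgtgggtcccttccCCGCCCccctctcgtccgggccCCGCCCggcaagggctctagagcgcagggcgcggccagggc

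Col11a1: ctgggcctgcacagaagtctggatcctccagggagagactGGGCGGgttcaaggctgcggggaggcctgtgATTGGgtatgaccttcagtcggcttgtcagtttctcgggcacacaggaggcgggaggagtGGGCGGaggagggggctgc

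RefSeq promoters matched 5 of the 7 genes, and base composition set Col3a1 apart from the other 4. Over the 250 bases before the start, the GC content was 35.2% for Col3a1, at percentile 5.01 of 32817 mouse promoters. It was 62.0% for Col1a2, 76.4% for Col5a1, 62.8% for Col5a3 and 62.4% for Col11a1, against a median of 52.4% over all promoters. GC boxes occurred in the promoters of Col1a2, Col5a1, Col5a3 and Col11a1 and in 32.7% of all promoters. CCAAT boxes occurred in those of Col1a2, Col5a3 and Col11a1 and in 33.8% of all. The TATAAA match was in that of Col3a1, and 12.4% of all promoters had one. The GLI consensus GACCACCCA occurred in none of the 5 on either strand, with or without 1 mismatch, and in 0.225% of all promoters exactly and 5.8% with up to 1 mismatch. These are matches of letters in a short window, and binding was not measured.

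A gene was called when edgeR's quasi-likelihood test gave an adjusted p below 0.05 and the change was at least 1.5-fold. Of 14289 genes tested, 17.7% were called, 11.6% higher and 6.1% lower in the KO-labelled libraries. Of the 7 fibrillar collagen genes, Col5a3 and Col11a1 were called higher, Col3a1 was called lower and 4 were not called. By adjusted p alone 58.7% of all tested genes differed and 5 of the 7 did, and the groups did not overlap for 64.2% of all genes and for 5 of the 7. The median log2 fold change was 0.01 over the 7 genes and 0.00 over all genes tested. Thus neither a difference nor a direction was common to the family, and most genes of the whole table passed the adjusted p as well.

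**Figure D1:**
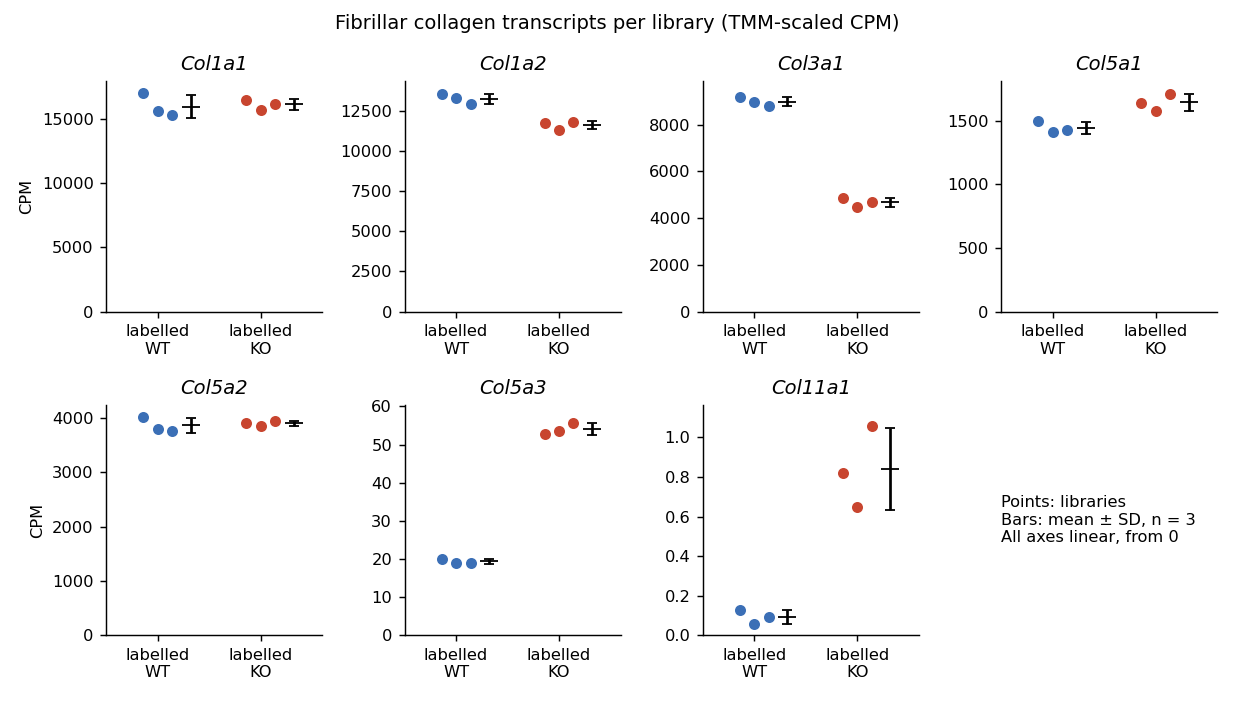
Level of each of the 7 genes in CPM, on linear axes from 0, with 1 point per library and the mean ± SD of 3 libraries beside the points. Col3a1 is lower and Col5a3 higher in every library labelled KO, whereas the points of Col1a1 and Col5a2 overlap.

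The type I chains had the highest levels of the 7 genes. Col1a1 (chr11:94936224-94953042, plus strand, 51 exons) ranked 1 of all genes by raw counts in each of the 6 libraries and 3 per kilobase of exon. It measured 17000, 15600 and 15300 CPM in the WT-labelled libraries and 16500, 15700 and 16200 CPM in the KO-labelled ones. The ranges overlapped, with a log2 fold change of 0.01 (SE 0.04, 95% interval -0.07 to 0.09; edgeR adjusted p = 0.799), so that a change as large as 1.5-fold lay outside the interval.

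Col1a2 (chr6:4504814-4541544, plus strand, 52 exons), the partner chain, measured 13500, 13300 and 12900 CPM in the WT-labelled libraries and 11700, 11300 and 11800 CPM in the KO-labelled ones. All 3 KO-labelled libraries lay below all 3 WT-labelled ones. The log2 fold change was -0.19 (SE 0.03, 95% interval -0.25 to -0.13; edgeR adjusted p = 5.96e-05), a change that passed the adjusted p and not the limit of 1.5-fold. Because the chains of a heterotrimer are made from separate genes, their ratio was taken within each library. Per kilobase of transcript the ratio of Col1a1 to Col1a2 was 1.13, 1.06 and 1.07 in the WT-labelled libraries and 1.27, 1.25 and 1.24 in the KO-labelled ones, a rise of 1.15-fold without overlap (exact two-sided permutation p = 0.1, the smallest that 3 against 3 libraries allow).

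Col3a1 (chr1:45311538-45349706, plus strand, 51 exons), the single chain of type III collagen, was the only one of the 7 genes called lower. It measured 9160, 8970 and 8780 CPM in the WT-labelled libraries and 4870, 4480 and 4680 CPM in the KO-labelled ones. The groups were far apart, with means of 8970 ± 187 and 4680 ± 194 CPM (SD, n = 3). The log2 fold change was -0.94 (SE 0.03, 95% interval -1.01 to -0.87; edgeR adjusted p = 1.03e-10). By raw counts it ranked 4 among all genes in each WT-labelled library, and 6, 7 and 7 in the KO-labelled ones. Per kilobase of exon it ranked 13 to 16 and 45 to 51. At a limit of 2-fold it was not called. A stretch of 141 bases of its exons overlaps Gm47302, annotated on the same strand.

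The fall of Col3a1 was larger than either difference in type I. Per kilobase of transcript the ratio of Col3a1 to Col1a1 was 0.575, 0.611 and 0.61 in the WT-labelled libraries and 0.315, 0.305 and 0.309 in the KO-labelled ones. The ratio was 1.94-fold lower, with no overlap between the groups (exact two-sided permutation p = 0.1, the smallest possible).

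Col5a2, which encodes a chain of the main type V heterotrimer, lies beside Col3a1 on chromosome 1 (chr1:45374321-45503282, minus strand, 54 exons). The genes point towards each other and their ends are 24614 bases apart. Col5a2 measured 4020, 3800 and 3760 CPM in the WT-labelled libraries and 3910, 3840 and 3930 CPM in the KO-labelled ones. These values overlapped (log2 fold change 0.01, SE 0.03, 95% interval -0.05 to 0.08; edgeR adjusted p = 0.773). The neighbours therefore differed in behaviour within the same libraries. The ratio of Col3a1 to Col5a2 per kilobase was 2.71, 2.81 and 2.78 in the WT-labelled libraries and 1.48, 1.39 and 1.42 in the KO-labelled ones, without overlap (exact two-sided permutation p = 0.1, the smallest possible).

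Col5a1 (chr2:27886425-28039514, plus strand, 66 exons) encodes the other chain of that heterotrimer. It measured 1500, 1410 and 1430 CPM in the WT-labelled libraries and 1640, 1580 and 1710 CPM in the KO-labelled ones. All 3 KO-labelled libraries were above all 3 WT-labelled ones. The log2 fold change of 0.18 (SE 0.03, 95% interval 0.11 to 0.26; edgeR adjusted p = 0.000586) was below the limit of 1.5-fold, and 212 bases of its exons overlap genes on the opposite strand. The ratio of Col5a1 to Col5a2 per kilobase was 0.293 to 0.301 in the WT-labelled libraries and 0.325 to 0.343 in the KO-labelled ones (1.12-fold; exact two-sided permutation p = 0.1, the smallest possible). In contrast, the ratio of Col5a2 to Col1a1 was 0.212 to 0.219 in both groups (exact two-sided permutation p = 0.7).

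Col5a3 (chr9:20770050-20815067, minus strand, 67 exons) encodes a less common type V chain that can join the other 2 chains in a trimer. Its counts were 630, 635 and 608 in the WT-labelled libraries and 1867, 2231 and 1840 in the KO-labelled ones, or 20.1, 19.0 and 19.0 CPM against 52.7, 53.5 and 55.7 CPM. The groups were separated by many times their spread, with means of 19.4 ± 0.637 and 54.0 ± 1.56 CPM (SD, n = 3). The log2 fold change was 1.48 (SE 0.04, 95% interval 1.38 to 1.57; edgeR adjusted p = 2.5e-11). Although it rose, Col5a3 remained the minor type V transcript. Per kilobase it was 0.0183 to 0.0184 of Col5a1 in the WT-labelled libraries and 0.0442 to 0.0465 in the KO-labelled ones, a 2.46-fold higher ratio.

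Col11a1 (chr3:114030540-114220718, plus strand, 67 exons) encodes a chain of type XI collagen, the core collagen of cartilage fibrils, and is also made by activated fibroblasts. Its counts were 4, 2 and 3 in the WT-labelled libraries and 29, 27 and 35 in the KO-labelled ones. A floor of 3 counts corresponds to 0.072 to 0.0957 CPM, and the WT-labelled libraries lay at 0.0597 to 0.128 CPM, so the lower group is at the limit of what this depth resolves. Summed over libraries the counts were 9 and 91, and scaled to library size their ratio was 8.89 (exact 95% interval 4.48 to 20.1, counting error only). The log2 fold change was 3.11 (SE 0.39; edgeR adjusted p = 1.83e-05). Col11a1 passed the filter on low counts only through the KO-labelled libraries and with 10 counts required in every library it was not tested, so its call adds nothing to the count of members that rose. At 0.648 to 1.06 CPM in the KO-labelled libraries it remained the scarcest of the 7 by far.

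Per kilobase of transcript, levels fell in the order Col1a1, Col1a2, Col3a1, Col5a2, Col5a1, Col5a3 and Col11a1 in every library of both groups. The means were 2690 ± 147 and 2470 ± 58.9 CPM per kilobase for Col1a1 and Col1a2 in the WT-labelled libraries, and 2720 ± 68.8 and 2170 ± 49.6 in the KO-labelled ones. Those of Col3a1 were 1610 ± 33.6 and 841 ± 34.9. The ranges of Col1a1 (2590 to 2860) and Col1a2 (2410 to 2520) lay close together without overlap in the WT-labelled libraries and were 2640 to 2780 and 2110 to 2200 in the KO-labelled ones. No neighbours in the order overlapped in either group. These levels rest on the longest coding transcript of each gene. The merged exons of all transcripts measured 6563 bases for Col1a1, 12426 for Col1a2 and 9816 for Col3a1. The closeness of the type I chains and the shares given below therefore depend on the length chosen, whereas the fold change of a gene between the groups does not. Col5a2 stood at 583 ± 21.6 and 587 ± 7.12, Col5a1 at 172 ± 5.55 and 195 ± 7.51, Col5a3 at 3.17 ± 0.104 and 8.82 ± 0.255, and Col11a1 at 0.0122 ± 0.00443 and 0.11 ± 0.027 CPM per kilobase.

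**Figure D2:**
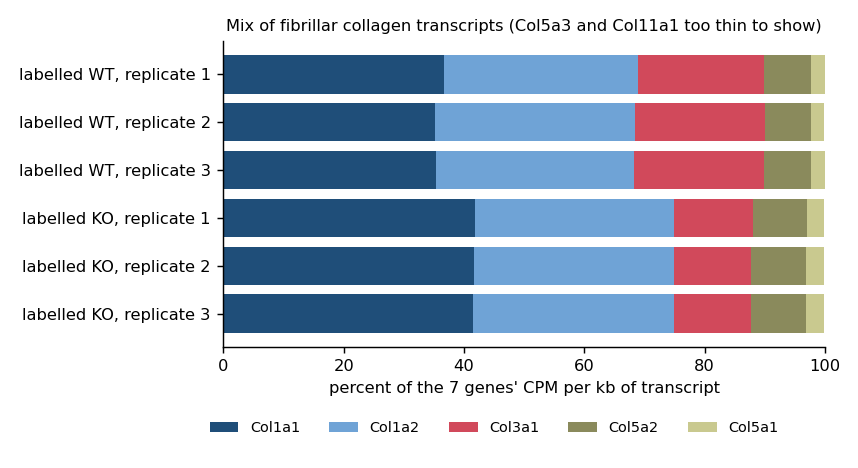
Share of each gene in the summed CPM per kilobase of the 7 genes, with 1 bar per library. Col3a1 makes up 21.4% of the mix on average in the WT-labelled libraries and 12.9% in the KO-labelled ones, and Col1a1 makes up 35.7% and 41.7%.

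The mix of fibrillar collagen transcripts therefore shifted away from type III. Col3a1 fell from 21.4% ± 0.299 to 12.9% ± 0.249 of the summed level per kilobase (SD, n = 3). The share of Col1a1 was 35.7% ± 0.758 and 41.7% ± 0.225, and that of Col1a2 was 32.8% ± 0.518 and 33.3% ± 0.265. Type V made up nearly all of the remainder, with Col5a2 at 7.73% ± 0.0529 and 9.01% ± 0.13, Col5a1 at 2.29% ± 0.0426 and 3.0% ± 0.0798, and Col5a3 at 0.042% ± 0.000587 and 0.135% ± 0.00493. Since shares sum to a whole, a lower share of Col3a1 raises the others without any change in their levels.

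The 7 genes took 4.46, 4.26 and 4.17% of all counts in the WT-labelled libraries and 3.92, 3.75 and 3.86% in the KO-labelled ones. The groups did not overlap (difference -0.457 percentage points; exact two-sided permutation p = 0.1, the smallest possible). The summed level went from 43500 ± 1510 to 38000 ± 924 CPM, a difference of -5550 CPM. Col3a1 contributed -4290 CPM and Col1a2 -1640 CPM, while Col5a1 added 194, Col1a1 131, Col5a3 34.6, Col5a2 29.8 and Col11a1 0.749 CPM. The lower total thus came from Col3a1 and Col1a2, and the higher relative change of Col5a3 and Col11a1 was of little weight in the sum.

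**Figure D3:**
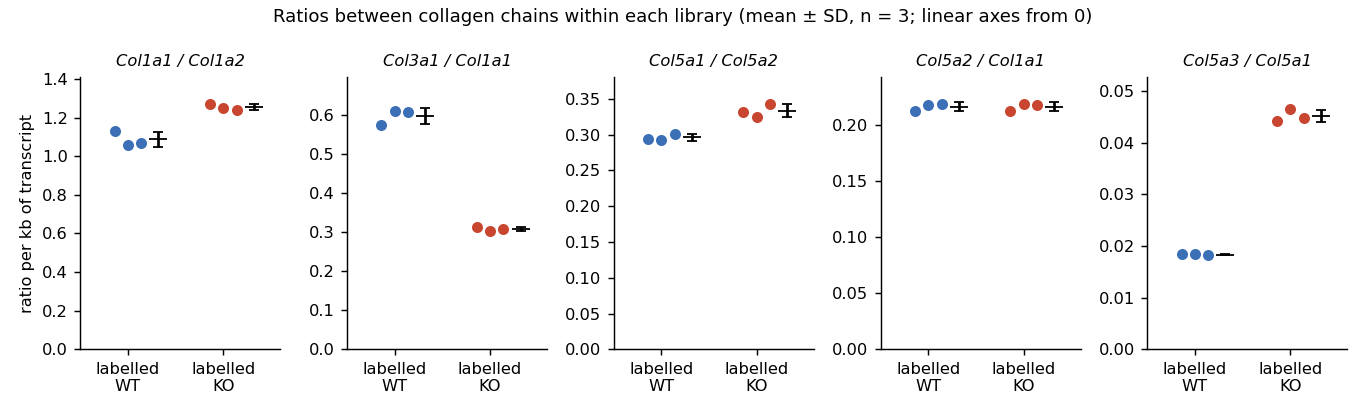
Ratios between collagen chains per kilobase of transcript, on linear axes from 0, with 1 point per library and the mean ± SD of 3 libraries. The ratio of Col3a1 to Col1a1 is lower and that of Col5a3 to Col5a1 higher in every KO-labelled library, while Col5a2 to Col1a1 lies at 0.212 to 0.219 in both.

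Profiles most like each member were sought among 10518 other genes, none of them under 100 counts in any library, by the root mean square difference of mean-centred log2 CPM over the 6 libraries. The nearest to Col3a1 were Bpgm (0.032), Eno3 (0.033) and Tcf4 (0.036), and the nearest to Col5a3 were Mks1 (0.058), Cdc42bpg (0.058) and Phactr2 (0.065). For Col1a1 they were Cpsf4 (0.012), Lrig1 (0.013) and Ccdc124 (0.014). For Col5a2 they were Col4a1 (0.008), Inpp5b (0.01) and Cpsf4 (0.014). For Col1a2 they were Ccdc173 (0.009), Ubac2 (0.009) and Tbc1d22a (0.012), and for Col5a1 Dnttip2 (0.012), Sfxn4 (0.022) and Ephb4 (0.023). Of the other fibrillar chains the closest pair was Col1a1 and Col5a2, with a difference of 0.02. Col5a2 ranked 9 in likeness to Col1a1, and Col1a1 ranked 15 in likeness to Col5a2. Over a pair of groups such a likeness mainly reflects a similar difference between them, and Col11a1 had too few counts to be compared.

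Other fibrillar chains showed smaller differences than Col3a1 and Col5a3. Col11a2, a partner of Col11a1 in type XI, stood at 49.1 and 57.9 CPM (log2 fold change 0.24, SE 0.04, edgeR adjusted p = 0.000302). Col27a1 stood at 27.9 and 30.9 CPM (0.14, SE 0.05, edgeR adjusted p = 0.0355). Neither was called, and Col2a1 and Col24a1 were not analysed here. Beyond the fibrillar class, 3 of 6 type IV genes were called higher and 0 lower by edgeR (0 lower also by DESeq2 or at an unadjusted p below 0.05). Col4a6, a chain of specialised basement membranes, went from 88.4 ± 1.77 to 292 ± 18.9 CPM, and was well counted in all libraries. Col4a3 and Col4a4, at 0.041 and 0.145 CPM against 7.0 and 12.2 CPM, had under 10 counts in WT-labelled libraries and passed the filter on low counts only through the KO-labelled ones, as Col11a1 did, so 1 of the 3 calls is free of that limit. By contrast, the abundant Col4a1 stood at 2030 CPM in both groups.

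Of 11 fibril-associated and network collagen genes, 1 was called higher and 2 lower. The gene called higher, Col10a1, passed the filter only through the KO-labelled libraries. The fibril-associated Col14a1 fell from 14.9 ± 0.799 to 0.596 ± 0.291 CPM, and Col8a1, a network-forming chain, fell from 717 ± 17.3 to 202 ± 3.77 CPM. Of 6 remaining collagens, 3 were called higher and 1 lower, and of the 3 higher, Col15a1 and Col17a1 likewise passed the filter only through the KO-labelled libraries. Col18a1, the source of endostatin, rose from 16.4 ± 0.659 to 31.1 ± 1.0 CPM, and Col28a1 fell from 69.6 ± 1.98 to 29.8 ± 1.58 CPM.

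**Figure D4:**
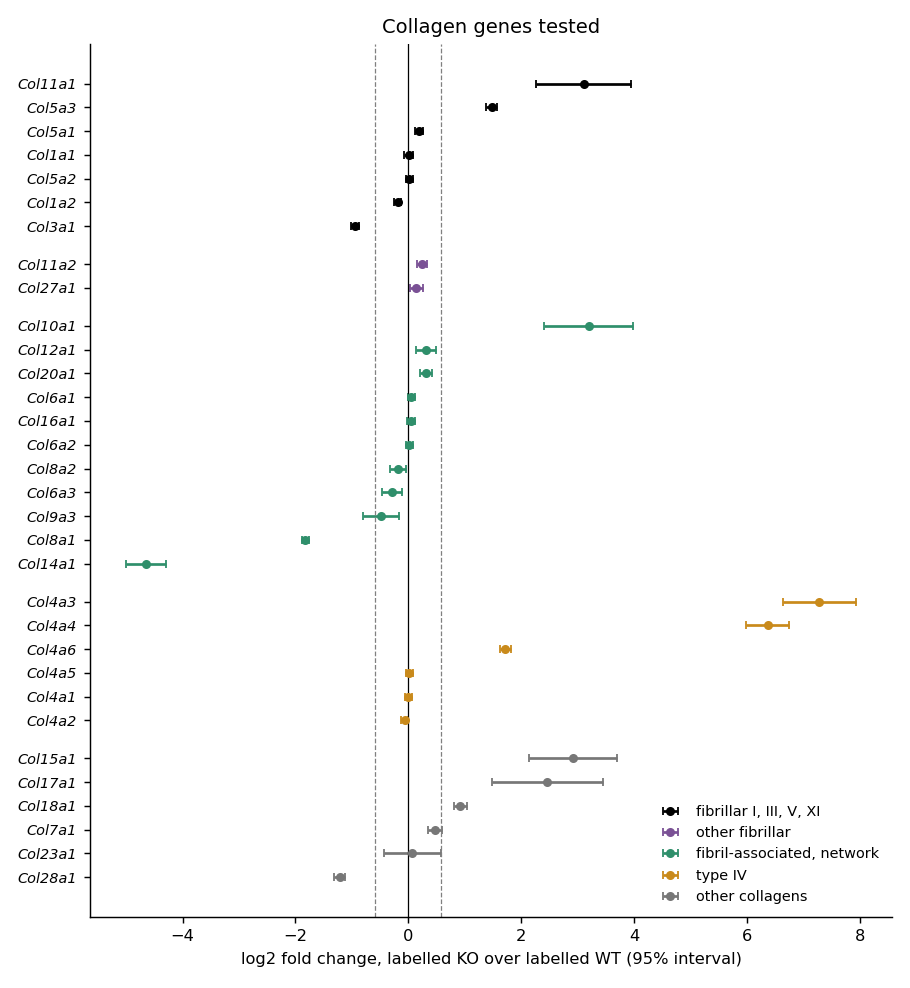
Log2 fold change of each collagen gene tested, labelled KO over labelled WT, with 95% intervals; the dashed lines mark 1.5-fold in each direction. Col3a1 lies beyond the lower line and Col5a3 and Col11a1 beyond the upper line, while Col1a1, Col1a2, Col5a1 and Col5a2 lie between the lines with narrow intervals.

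The enzymes and chaperones that make, secrete and trim these chains were then examined. Of 23 genes of chain folding and secretion 1 was called higher and 0 lower by edgeR, with a median log2 fold change of 0.10. DESeq2 also called 1 and 0, and by edgeR's unadjusted p below 0.05 without a fold limit 13 were higher and 3 lower. By adjusted p alone 15 of the 23 differed, and 58.7% of all tested genes did. The share of all genes at an unadjusted p was not computed, so such counts, here and for other lists, have no background beside them. Larp6, which binds the mRNAs of type I chains, rose from 0.187 ± 0.0874 to 7.63 ± 0.44 CPM (log2 fold change 5.33, SE 0.19, edgeR adjusted p = 1.61e-10), with 9, 5 and 4 counts in the WT-labelled libraries, so that it too passed the filter only through the others. The collagen chaperone Serpinh1 stood at 1400 and 1440 CPM (0.04, SE 0.03, edgeR adjusted p = 0.328). Of 7 genes of propeptide removal 4 were called higher and 0 lower by edgeR and by DESeq2, and 2 were lower at an unadjusted p below 0.05. Of the 4, Adamts3 and Pcolce2 passed the filter only through the KO-labelled libraries. Tll1, a procollagen C-proteinase, rose from 1.28 ± 0.473 to 10.8 ± 1.2 CPM, and the others called (Adamts3, Adamts14 and Pcolce2) stayed at or below a mean of 2.39 CPM. The abundant C-proteinase enhancer Pcolce was at 1000 and 757 CPM, a change under 1.5-fold (log2 fold change -0.41, SE 0.03, edgeR adjusted p = 6.56e-08).

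Of 5 lysyl oxidase genes, which cross-link the fibrils, 1 was called higher and 2 lower. Loxl1 fell from 55.8 ± 0.996 to 25 ± 0.959 CPM and Loxl2 from 298 ± 10.3 to 197 ± 5.69 CPM, while Loxl4 rose from 7.82 ± 0.539 to 18.8 ± 0.386 CPM. Lox itself stood at 823 and 1040 CPM and was not called (log2 fold change 0.34, SE 0.04, edgeR adjusted p = 6.27e-06).

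Among 17 genes of the fibril surface and its assembly, 3 were called higher and 7 lower, with a median log2 fold change of -0.23. The small leucine-rich proteoglycan Lum, which binds fibrils of types I and III, fell from 11.7 ± 0.571 to 0.24 ± 0.0887 CPM. With 12, 7 and 7 counts left in the KO-labelled libraries, Lum passed the filter on low counts only through the WT-labelled ones. Its relative Dcn (decorin) fell from 2640 ± 117 to 905 ± 6.95 CPM. Dpt, a matrix protein that speeds fibril formation, fell from 10.7 ± 0.93 to 0.733 ± 0.0919 CPM, and Tnxb, a tenascin of the fibril surface, from 107 ± 15.3 to 30.2 ± 4.12 CPM. Ccn2, a matricellular gene, rose from 212 ± 65.5 to 457 ± 23.9 CPM.

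Of 8 collagen receptor genes 2 were called higher and 0 lower by edgeR (1 and 0 by DESeq2), and 2 were lower at an unadjusted p below 0.05. Itga11, the integrin subunit that binds fibrillar collagen on fibroblasts, rose from 18.3 ± 0.789 to 226 ± 3.18 CPM (log2 fold change 3.63, SE 0.04, edgeR adjusted p = 3.75e-15). The collagen receptor kinase Ddr2 stood at 619 and 494 CPM and was not called (-0.32, SE 0.04, edgeR adjusted p = 2.77e-05). Of 11 genes of collagen breakdown 2 were called higher and 2 lower, of which Mmp9 passed the filter only through the WT-labelled libraries. The protease inhibitor Timp3 rose from 2630 ± 31.2 to 3970 ± 23.2 CPM and the membrane protease Mmp16 from 13.9 ± 1.17 to 22.6 ± 1.63 CPM, whereas the stromelysin Mmp3 fell from 8.97 ± 1.08 to 4.55 ± 0.346 CPM. By adjusted p alone 8 of the 11 passed, 4 higher and 4 lower, where 58.7% of all tested genes did. Among the lower ones without a call, Mmp14 stood at 599 and 453 CPM (log2 fold change -0.40, SE 0.03) and Mmp13 at 23.7 and 16.4 CPM (-0.53, SE 0.05). Of 13 genes of TGF-β signalling, an inducer of collagen transcription, 0 were called by edgeR with the fold limit. By adjusted p alone 10 passed (4 higher and 6 lower), where 58.7% of all tested genes did. By unadjusted p below 0.05, 5 were higher and 6 lower, and with the fold limit DESeq2 called 0 and limma-voom 1.

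**Figure D5:**
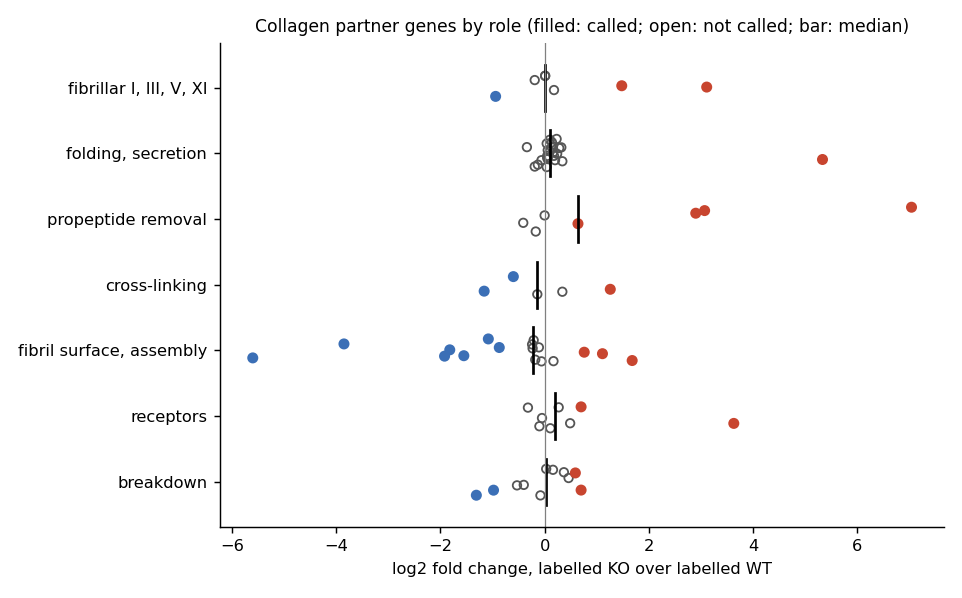
Log2 fold change of the 7 genes and of the genes that act on fibrillar collagens, grouped by role, with 1 point per gene, filled where called, and a bar at the median. Genes of folding and secretion cluster near 0 apart from Larp6, and genes of the fibril surface reach furthest to the low side. Adamts3 had no counts in the WT-labelled libraries, so its point is a fitted value.

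Markers of other states and cell types were read beside these values. Of 9 myofibroblast markers 7 were analysed, with a summed level of 2050 to 2240 CPM in the WT-labelled libraries and 2190 to 2280 CPM in the KO-labelled ones. Of these 7, 2 were called higher and 1 lower. Acta2, the smooth muscle actin of myofibroblasts, had a log2 fold change of 0.01 (SE 0.03, edgeR adjusted p = 0.859). Actg2 rose from 64.4 ± 5.82 to 160 ± 4.07 CPM and Cnn1 from 6.54 ± 1.32 to 10.8 ± 0.0907 CPM, while Myl9 fell from 38.8 ± 3.25 to 8.0 ± 0.721 CPM. Of 10 markers of chondrocytes and osteoblasts, which make type XI collagen, 4 were analysed, with sums of 50.8 to 53.5 and 53.7 to 58.0 CPM, most of it Runx2. Of these 4, 2 were called higher: Alpl went from 0.28 ± 0.068 to 1.14 ± 0.17 CPM and Matn3 from 0.247 ± 0.0446 to 0.75 ± 0.0487 CPM, both with under 10 counts in WT-labelled libraries. Sox9, a regulator of chondrocyte genes, was at 8.51 ± 0.104 and 6.03 ± 0.446 CPM (log2 fold change -0.50, SE 0.08, edgeR adjusted p = 0.000173) and was not called. Of 10 epithelial markers 4 were analysed and their sum was 11.7 to 14.1 CPM in the WT-labelled libraries and 37.6 to 39.5 CPM in the KO-labelled ones, with Krt7 the largest part at 23.1 ± 0.257 CPM in the latter. Epcam, Krt18, Krt19, Prss1, Cpa1 and Amy2a1 were not found in the count table. All 3 that were tested were called higher, of which Krt7 and Cela1 were well counted in both groups. Krt7 rose from 4.38 ± 0.472 CPM and Cela1 from 8.04 ± 0.747 to 14.7 ± 0.964 CPM. Cdh1 had only 10, 14 and 9 counts in the WT-labelled libraries. It passed the filter on low counts only through the KO-labelled ones, so its call adds nothing to the count of markers that rose. Of 8 leukocyte markers 5 were analysed (55.8 to 60.9 and 52.8 to 54.5 CPM), most of it Lyz2 at 41.1 and 36.6 CPM and Cd14 at 15.7 and 13.9 CPM. Cd68, Csf1r and Aif1 were each at or below a mean of 1.55 CPM, and Ptprc, Adgre1 and Itgam were not found in the count table. Of 6 endothelial markers only Vwf was analysed (0.866 to 1.6 and 0.762 to 0.939 CPM), and none of the 5 adipocyte markers was. The part of these levels in the differences of Col3a1, Col5a3 and Col11a1 was not tested. In bulk RNA, fewer cells that make a transcript and less of it per cell cannot be told apart.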

How the data were processed

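RNA was poly-A selected, and the submitters' processing notes name STAR 2.7.2b, featureCounts, limma and build GRCm38.p6. Whether counting used strand is not given in the sources used here. The authors deposited raw counts per gene and log2 CPM values for 6 libraries. Raw counts were used throughout, with the deposited log2 CPM as an alternative. edgeR 4.0.16 (TMM scaling, filterByExpr, quasi-likelihood test, Benjamini-Hochberg adjustment over 14289 genes) compared 3 libraries labelled KO with 3 labelled WT; CPM are scaled by TMM. Genes were called at an adjusted p below 0.05 and at least 1.5-fold. On simulated data the test recovered 98% of 200 changed genes among 14102, with 2 false calls. The planted changes all exceeded 1.5-fold, lay in genes above a minimum mean level, and carried noise drawn from the test's own fitted spread. The recovery therefore does not cover scarce genes such as Col11a1 or changes close to the limit. Gene models were from GENCODE M21, in which 14822 of 14831 identifiers matched without version. Single values were compared by exact permutation over libraries.

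The 7 genes, the lists and the tests were chosen with earlier results of these data known. From each list up to 3 called genes per direction were named by size of change, leaving out genes under 100 counts in any library of the group where they were higher; other genes were named after their values were seen. The alternatives were other scalings, filters, fold limits and tools, and leaving out each library.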

Additional observations from a re-analysis of the deposited data

How the results depend on the processing

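The log2 fold change of Col3a1 ranged from -0.97 to -0.88 and that of Col5a3 from 1.46 to 1.54 over 15 alternatives, that of Col1a2 from -0.21 to -0.13 and that of Col5a1 from 0.15 to 0.24, and each of the 7 genes kept its side of the adjusted p limit wherever it was tested. Col11a1 ranged from 2.87 to 3.38 over 14 alternatives and was not tested with 10 counts required in every library, which left 1 gene of the family called higher. By adjusted p alone 2 of the 7 were lower, and with a 2-fold limit 0 were, since Col3a1 changed 1.92-fold. Over all genes 8391 passed by adjusted p alone and 1456 with the 2-fold limit, against 2531. The values of Col1a1 (-0.02 to 0.07) and Col5a2 (-0.01 to 0.07) changed sign when single libraries were left out: Col1a1 was -0.01 without WT replicate 2 or KO replicate 1 and -0.02 without WT replicate 3, against a highest value of 0.06, and Col5a2 was -0.01 without WT replicate 3, against a highest value of 0.04. Per kilobase of exon the share of the 7 genes differed by -0.151 percentage points, with a different denominator, against -0.457. No paired analysis was possible because the labels give the groups no shared animals, batches or days.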
